A study of Mus musculus with 16 samples.

Results

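Epithelial chemokines were taken as 10 genes chosen by name: Cxcl1, Cxcl2, Cxcl5, Cxcl9, Cxcl10, Cxcl16, Ccl20, Ccl25, Ccl28 and Cx3cl1. They are 10 of the 22396 gene symbols in the tables, they were found by symbol with no measured value used, and each is represented by 1 listed transcript. RNA was sequenced from EpCAM+ cells sorted from the distal colon of 16 adult mice, 1 library a mouse. EpCAM is a surface protein of epithelial cells. The controls were Tnfr2-f/f mice, which carry the floxed Tnfrsf1b alleles too, and the mice labelled knockout were Vil1::Cre;Tnfr2-f/f, in which Cre driven by the villin promoter acts in the intestinal epithelium on the gene of TNF receptor 2. Of the DSS mice, 3 were controls and 4 were labelled knockout, and of the water mice 4 and 5. Dextran sulfate sodium (DSS), which injures the colonic epithelium, was given at 3% for 6 days by the labels, with dissection on day 12. The study's text gives a higher concentration, places the water mice before injury, and says that the injured regions of DSS colons were taken. The DSS mice were all female. In water the 4 mice of cage a were male and the 5 of cage b female, and no cage held both treatments, so that treatment cannot be told apart from cage, and in water cage cannot be told apart from sex.

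Chemokines are small proteins that draw leukocytes through receptors coupled to G proteins. Cxcl1, Cxcl2 and Cxcl5 attract neutrophils through Cxcr2, and NF-kB and IL-17 signalling is known to raise them in injured epithelium. Cxcl9 and Cxcl10 are induced by interferons and act on Cxcr3 of T cells and NK cells. Cxcl16 and Cx3cl1 are made as transmembrane proteins that tether cells carrying Cxcr6 and Cx3cr1 until proteases shed them. Ccl20 guides cells with Ccr6 to mucosal lymphoid tissue, Ccl25 guides cells with Ccr9 mainly to the small intestine, and Ccl28, which binds Ccr10 and Ccr3, brings IgA plasma cells to mucosal surfaces.

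The neutrophil attractants lie close together in the genome. In GRCm38 with the GENCODE M21 annotation, Cxcl5 (ENSMUSG00000029371) spans chr5:90759360-90761624, Cxcl1 (ENSMUSG00000029380) chr5:90891241-90893115 and Cxcl2 (ENSMUSG00000058427) chr5:90903871-90905938, all on the plus strand. Cxcl9 (ENSMUSG00000029417, chr5:92321347-92328079) and Cxcl10 (ENSMUSG00000034855, chr5:92346638-92348889) are neighbours on the minus strand of the same chromosome. Cxcl16 (ENSMUSG00000018920) lies at chr11:70453983-70459984, Ccl20 (ENSMUSG00000026166) at chr1:83116766-83119167, Ccl25 (ENSMUSG00000023235) at chr8:4325210-4360020, Ccl28 (ENSMUSG00000074715) at chr13:119623819-119654359 and Cx3cl1 (ENSMUSG00000031778) at chr8:94772009-94782427. The values cover the exons of the listed transcripts, of which there are 3 in Ccl28 and Cx3cl1, 5 in Cxcl16, 6 in Ccl25 and 4 in each of the others.

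Promoter sequence is shown for motifs of NF-kB and of interferon signalling, which are known to act on some of these genes. RefSeq promoters of GRCm38.p6 were listed for 8 of the 10 genes, not for Cxcl5 and Cxcl16, and the 250 bases before each start were searched on both strands. The NF-kB-like motif, GGG and TTCC with any 3 bases between them (on the other strand GGAA and CCC), was found before the starts of Cxcl1, Cxcl2, Cxcl10 and Ccl20, against 4.65% of 32851 promoters. The motif of interferon response elements, TTTC and TTTC with any 2 bases between them (on the other strand GAAA and GAAA), was found before Cxcl10, against 2.98% of promoters. Neither was found in the windows of Cxcl9, Ccl25, Ccl28 and Cx3cl1. The stretches that hold the matches follow, 5′ to 3′ on the strand of the gene, with the matched bases in capitals. The windows are chr5:90891141-90891199 (plus strand), chr5:90903787-90903845 (plus), chr5:92348969-92349117 (minus) and chr1:83116671-83116710 (plus), in the order listed.
Cxcl1: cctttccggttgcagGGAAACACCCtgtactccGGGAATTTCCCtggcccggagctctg
Cxcl2: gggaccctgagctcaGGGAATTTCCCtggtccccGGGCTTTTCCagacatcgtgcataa
Cxcl10: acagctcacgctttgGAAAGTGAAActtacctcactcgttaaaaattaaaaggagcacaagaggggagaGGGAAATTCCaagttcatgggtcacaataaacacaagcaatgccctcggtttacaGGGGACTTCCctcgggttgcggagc
Ccl20: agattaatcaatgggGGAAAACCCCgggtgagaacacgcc
In Cxcl1 and Cxcl2 the run GGGAATTTCCC matches on both strands with an offset of 1 base. In Cxcl10 the first match is the interferon motif and the others are the NF-kB-like motif. These are matches of letters and were not tested as sites.

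The values are TPM, transcript abundances corrected for transcript length and library size, so that levels can be compared between listed transcripts. Other transcripts of a gene are not listed, so levels and ratios between genes need not hold for whole genes. The listed TPM of a library summed to 487469 to 861109 in water and 539359 to 662142 after DSS. Each treatment has a table of its own, scaled apart from the other, so tests were run only within a table. Differences between DSS and water mice are given on log2(TPM + 1) after one rescaling of all 16 libraries, with the pooled SD of the groups and with no test. Without the rescaling the median gene was higher after DSS by 0.32 on that scale in controls and 0.31 in mice labelled knockout, and with it by 0.01 in controls and 0 in mice labelled knockout. Tnfrsf1b itself did not separate the labelled genotypes. It measured 18.4 ± 6.02 TPM (SD, n = 4) against 16.5 ± 4.95 (n = 3) in DSS controls, and 11.8 ± 2.30 (n = 5) against 13.9 ± 2.06 (n = 4) in water, with exact two-sided permutation p of 0.629 and 0.198. The TPM covers the whole listed transcript, so it need not show the loss of floxed exons, and the genotype is given as the label states it.

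The 10 epithelial markers were high in all mice, with a mean log2(TPM + 1) of 8.21 to 8.62 in water and 8.36 to 8.91 after DSS. Markers of other cells differed by treatment. All 9 macrophage and dendritic markers were lower after DSS without overlap, and their mean log2(TPM + 1) was 6.15 to 7.32 in water and 1.24 to 2.39 after DSS, with C1qa at 191.5 to 422.2 TPM in water against 0.761 to 11.7. The pan-leukocyte list stood at 4.98 to 6.28 in water and 1.98 to 3.48 after DSS, and 6 of its 7 genes did not overlap. Over all mice 6.96% of genes were lower after DSS without overlap. The B and plasma cell gene Jchain ran from 464.6 to 13800 TPM in water and from 5.18 to 440.6 after DSS. The T cell list was low in water (1.06 to 1.93) and lower after DSS (0.0198 to 0.425). Of its 7 genes 3 reached a mean of 1 TPM, and all 3 were lower after DSS without overlap. The stromal list overlapped (4.209 to 5.827 in water, 3.395 to 5.557 after DSS), as did the endothelial list (1.385 to 2.477 and 1.496 to 2.487). In the neutrophil list S100a8 and S100a9 were higher after DSS, S100a8 at 19.3 to 904.3 TPM against 0 to 6.31 in water, while Ly6g overlapped, Il1b was lower in mice labelled knockout (26.8 to 36.1 TPM against 70.7 to 212.5), and Mpo was listed at 0 in every DSS mouse. A chemokine read in these libraries can come from any of these cells, fewer cells of a type and less RNA per cell cannot be told apart in bulk RNA, and the part of the other cells in the differences below was not tested.

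Some libraries stood apart from the others in marker scores. DSS control 1 had a neutrophil score of 6.18 on that scale against 3.03 to 4.83 in the other 6 DSS mice, and a pan-leukocyte score of 3.48 against 1.98 to 2.80. Water knockout 2 had a macrophage and dendritic score of 6.15 against 6.55 to 7.32 in the other 8 water mice, and a stromal score of 4.21 against 4.80 to 5.83. Its B and plasma cell score was the highest, at 6.03 against 2.74 to 5.64. DSS control 3 had the lowest neutrophil score after DSS, at 3.03 against 4.06 to 6.18 in the other 6. Its epithelial score was the highest, at 8.91 against 8.36 to 8.72. Without DSS control 3, 24.7% of genes were higher in DSS than in water controls without overlap, against 10.3% with all mice. Several differences below are given with and without one of these libraries.

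By median level the 10 genes fell into tiers. In water Cxcl2 (68.9 TPM) stood above Cxcl1 (50.3), Cxcl10 (30.7), Ccl28 (29.7), Cxcl16 (17.7) and Cx3cl1 (16.9), and then Cxcl5, Cxcl9, Ccl25 and Ccl20 followed at 1.23 to 1.97. In that order Ccl28 was above Cxcl16, and Cx3cl1 above Cxcl5, in all 9 water mice with ranges apart, while the other neighbours overlapped. After DSS the order was Cxcl1 (64.1), Ccl28 (43.4), Cxcl2 (27.8), Cxcl10 (14.9), Cx3cl1 (14.7), Cxcl5 (12.6), Cxcl16 (8.58), Ccl20 (5.33), Ccl25 (1.79) and Cxcl9 (1.22), and the ranges of all neighbours overlapped. Within the mice, Cxcl2 exceeded Cxcl1 in 8 of 9 water mice, and after DSS Cxcl2 exceeded Cxcl10 in 7 of 7. The sum of the 10 genes overlapped between treatments, at 121.6 to 331.0 TPM in water and 138.6 to 378.0 after DSS.

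**Figure D1:**
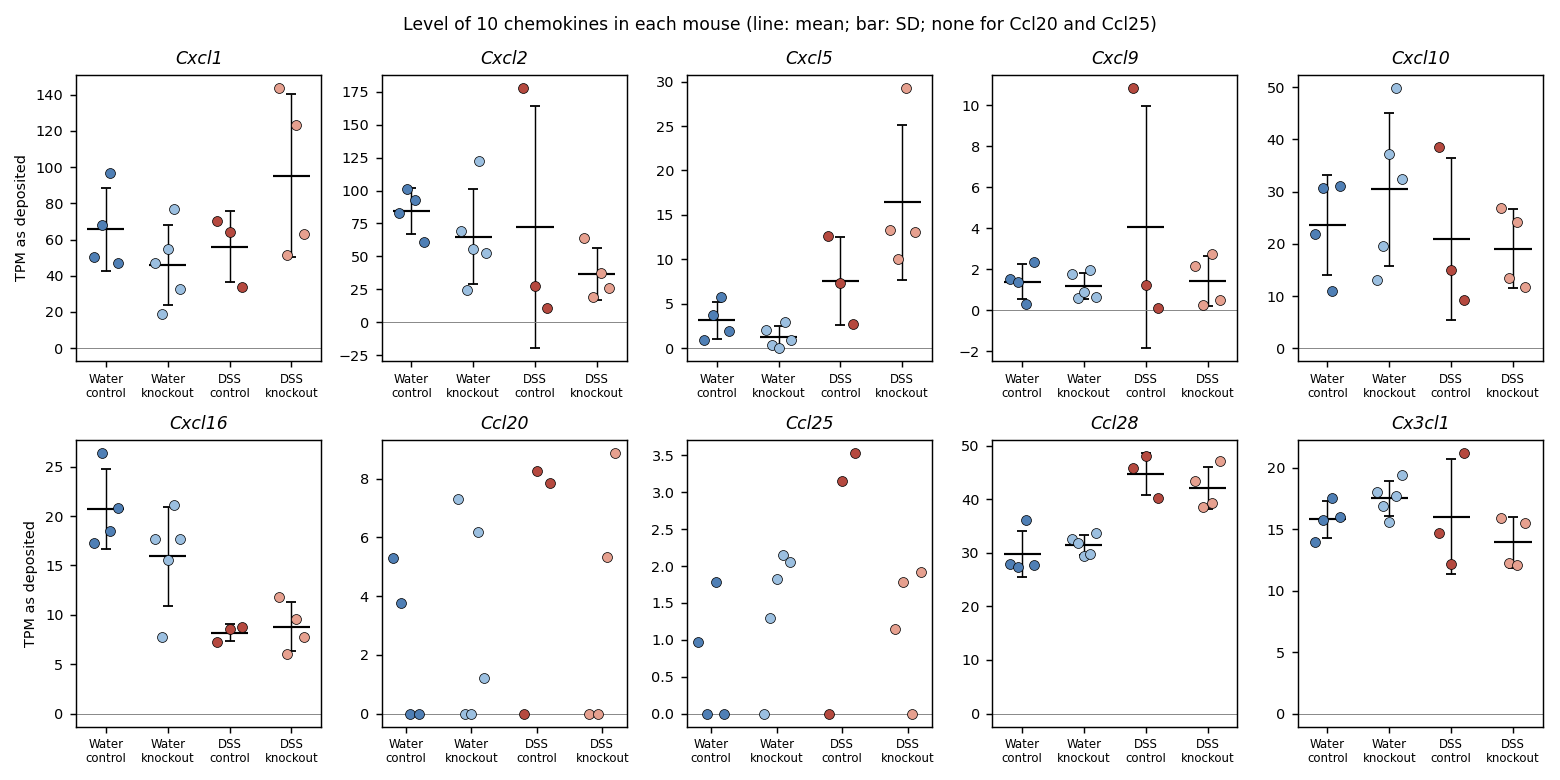
TPM of each chemokine in each of the 16 mice, by treatment and labelled genotype, with the mean (line) and SD (bar) except for Ccl20 and Ccl25. Cxcl16 sat at 6.07 to 11.8 TPM in the 7 DSS mice and at 15.5 to 26.4 in 8 of 9 water mice. Ccl28 varied little in both treatments and Cx3cl1 only in water, and Ccl20 and Ccl25 were listed at 0 in some mice of each treatment.

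Between DSS and water mice, few of the 10 chemokines separated. In controls 0 of 10 were higher without overlap, where 10.3% of 11247 genes were, and 1 of 10 was lower, Cxcl16, where 14.1% of genes were. In mice labelled knockout 1 of 10 was higher, Cxcl5, against 17.3% of genes, and 1 was lower, Cx3cl1, against 18.0%. In both labelled genotypes together 0 were higher (6.04% of genes) and 0 lower (8.51%), and over all mice pooled 0 were higher (4.42%) and 0 lower (6.96%). The median difference of the 10 was -0.07 in controls and -0.23 in mice labelled knockout. With TPM as deposited, Ccl28 was higher in controls, as were 3486 of the 11247 genes, and Cxcl16 was lower (8.12%). On that scale Cxcl5 and Ccl28 were higher in mice labelled knockout (31.4%), 0 were lower (10.1%), and Ccl28 was the 1 that was higher over all mice (18.9%).

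Leaving out a mouse made more of all genes separate, so each count stands beside the share of all genes under the same omission. Without DSS control 1 the controls had 2 higher, Ccl20 and Ccl25 (13.0% of genes), and 2 lower, Cxcl2 and Cxcl16 (17.3%). Without DSS control 3 they had 2 higher, Cxcl5 and Ccl28 (24.7%), and 2 lower, Cxcl16 and Cx3cl1 (26.2%). Without Water control 3 they had 1 higher, Ccl28 (13.1%), and 1 lower (17.1%), and without Water control 1 they had 0 higher (12.7%) and 2 lower, Cxcl16 and Cx3cl1 (15.8%). In mice labelled knockout, leaving out Water knockout 2 gave 1 higher (19.2%) and 3 lower, Cxcl2, Cxcl16 and Cx3cl1 (20.4%), and leaving out DSS knockout 1 gave 1 higher (20.1%) and 2 lower, Cxcl16 and Cx3cl1 (20.8%).

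**Figure D2:**
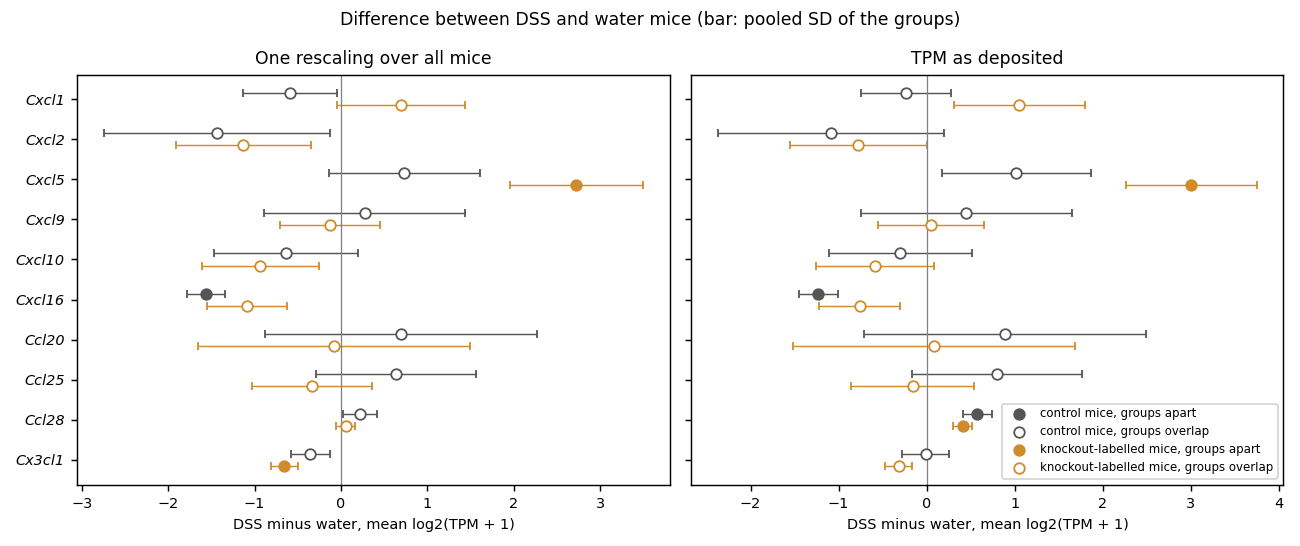
Difference between DSS and water mice in mean log2(TPM + 1) for each chemokine, after one rescaling over all mice (left) and as deposited (right), in controls and in mice labelled knockout. Bars are the pooled SD, and filled points mark groups that do not overlap: Cxcl16 in controls on both sides, Cxcl5 in mice labelled knockout on both sides, Cx3cl1 only after rescaling and Ccl28 only as deposited.

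Cxcl1, a main neutrophil attractant of injured epithelium, was high in both treatments. It measured 50.3, 68.3, 96.9 and 46.8 TPM in water controls and 46.9, 18.7, 54.9, 76.8 and 32.6 in water mice labelled knockout, and Water knockout 2 was the lowest of all. After DSS the controls measured 70.2, 64.1 and 33.8 TPM and the mice labelled knockout 143.9, 51.4, 123.0 and 63.1. The groups overlapped, and the rescaled difference between treatments was -0.59 with a pooled SD of 0.54 in controls and 0.70 with a pooled SD of 0.74 in mice labelled knockout. Relative to Epcam in the same mouse the controls were narrowly apart, at 0.0332 to 0.0781 after DSS and 0.0796 to 0.136 in water. The mice labelled knockout overlapped. As deposited Epcam itself was higher after DSS, at 893.9 to 1017 TPM against 565.7 to 712.4 in water, as were 18.9% of genes. After rescaling its values overlapped over all mice. Over all mice 11.6% of genes were lower relative to Epcam without overlap, and Cxcl1 was not among them. The share in controls alone was not computed.

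Cxcl2, the close relative of Cxcl1, had a lower median after DSS (27.8 TPM) than in water (68.9), and with all mice in the groups overlapped. Water controls measured 82.6, 101.2, 92.9 and 61.1 TPM, and water mice labelled knockout 68.9, 24.8, 55.8, 122.4 and 52.7. After DSS the values were 178.2, 27.8 and 11.0 TPM in controls and 64.3, 19.1, 37.4 and 25.8 in mice labelled knockout. DSS control 1 was the highest of all 16 mice and its group the most spread. The rescaled difference was -1.44 with a pooled SD of 1.30 in controls and -1.13 with 0.78 in mice labelled knockout. Without DSS control 1 the controls differed by -2.54 and no longer overlapped.

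The ratio of Cxcl2 to Cxcl1 in the same mouse does not depend on how a table was scaled. It was 0.959 to 1.64 in the 9 water mice, 0.304 to 0.447 in 6 of the 7 DSS mice, and 2.54 in DSS control 1. With that mouse in, the treatments overlapped. Without it, an omission chosen after the values were seen, they did not, and 3.4% of genes had a ratio to Cxcl1 that was likewise lower after DSS.

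Cxcl5, the third Cxcr2 ligand of the list, is known to be made largely by epithelial cells and was low in water. It measured 0.974, 3.78, 5.80 and 1.97 TPM in water controls and 2.02, 0.386, 0.000407, 3.00 and 0.917 in water mice labelled knockout. After DSS the controls measured 12.6, 7.38 and 2.74 TPM and the mice labelled knockout 13.3, 10.0, 29.3 and 13.1. In mice labelled knockout every DSS mouse lay above every water mouse, by 2.72 with a pooled SD of 0.77, and that difference was 2.42 to 2.99 whichever mouse was left out. In controls the groups overlapped through DSS control 3, with a difference of 0.73 and a pooled SD of 0.87, which was 0.30 without DSS control 1 and 1.25 without DSS control 3.

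Set against Cxcl1 in the same mouse, Cxcl5 separated the treatments in all 16 mice. The ratio was at most 0.0599 in water and 0.081 to 0.238 after DSS, where 0.24% of 11246 genes had a ratio to Cxcl1 that was higher after DSS without overlap and 3.09% a lower one. This ratio was looked at after the values were known. Of the other Cxcr2 ligands, Ppbp measured 3.75 to 41.5 TPM after DSS and 0 to 1.77 in water, and Cxcl3 overlapped at 1.55 to 37.5 and 0.333 to 3.73, highest in DSS control 1. Their receptor Cxcr2 was near the floor, at 0.431 to 4.16 TPM after DSS and 0 to 1.07 in water.

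**Figure D3:**
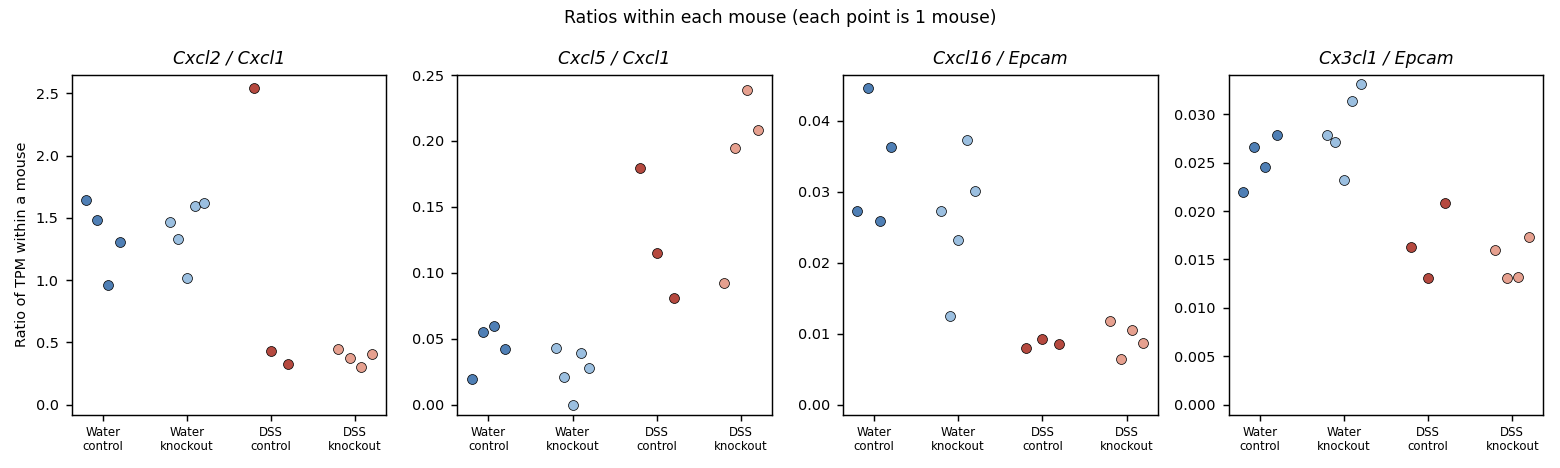
Ratios of TPM within each mouse, which the scaling of a table cannot change, by treatment and labelled genotype, 1 point a mouse. Cxcl2 to Cxcl1 was 0.304 to 0.447 after DSS apart from DSS control 1 at 2.54, and Cxcl5 to Cxcl1 was higher in every DSS mouse. Cxcl16 and Cx3cl1 to Epcam were lower in every DSS mouse, as were 11.6% of genes.

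Cxcl9, an interferon-gamma target, had the lowest median after DSS, although Ccl25 was above it in only 4 of the 7 mice. It measured 1.54, 1.37, 0.29 and 2.36 TPM in water controls and 1.78, 0.612, 0.915, 1.98 and 0.638 in water mice labelled knockout. After DSS it measured 10.9, 1.22 and 0.114 TPM in controls and 2.18, 0.27, 2.77 and 0.493 in mice labelled knockout. DSS control 1 was the only mouse above 3 TPM, and the groups overlapped, with differences of 0.28 (pooled SD 1.16) in controls and -0.13 (pooled SD 0.58) in mice labelled knockout. Without DSS control 1 the difference in controls was -0.66, so its sign turned.

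Cxcl10, which answers to both types of interferon, was several times higher than Cxcl9. It measured 21.8, 30.7, 10.9 and 31.1 TPM in water controls and 13.0, 19.5, 37.3, 49.9 and 32.4 in water mice labelled knockout. After DSS it measured 38.6, 14.9 and 9.28 TPM in controls and 26.9, 13.4, 24.2 and 11.8 in mice labelled knockout. The differences between treatments, -0.64 (pooled SD 0.83) and -0.93 (pooled SD 0.68), came with overlap. The first was -1.19 without DSS control 1 and -0.18 without DSS control 3. Cxcr3, the receptor of both, measured 0.283 to 1.34 TPM in water and was listed at 0 in 6 of 7 DSS mice.

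Cxcl16, the transmembrane ligand of Cxcr6, was lower after DSS. Water controls measured 17.2, 26.4, 18.5 and 20.8 TPM, and DSS controls 7.20, 8.58 and 8.74. These groups did not overlap, with a difference of -1.56 and a pooled SD of 0.22, and the difference was -1.65 to -1.44 whichever mouse was left out. Water mice labelled knockout measured 17.7, 7.72, 15.5, 21.1 and 17.6 TPM and their DSS counterparts 11.8, 6.07, 9.61 and 7.74, which overlapped through Water knockout 2, with a difference of -1.09 and a pooled SD of 0.46. Without that mouse the difference was -1.31 with no overlap. Relative to Epcam in the same mouse Cxcl16 was lower in every DSS mouse (0.0065 to 0.0118) than in every water mouse (0.0125 to 0.0446), as were 11.6% of genes, with 1.05% higher. All genes of the macrophage and dendritic list were lower after DSS too, and their part in the Cxcl16 difference was not tested. Cxcr6, the receptor of Cxcl16, measured at most 1.28 TPM in any mouse.

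Cx3cl1, the other transmembrane chemokine, differed less. It measured 13.9, 15.7, 17.5 and 15.96 TPM in water controls and 18.0, 16.9, 15.6, 17.7 and 19.4 in water mice labelled knockout, with 14.7, 12.1 and 21.2 in DSS controls and 15.9, 12.2, 12.1 and 15.5 in DSS mice labelled knockout. As deposited the last 2 groups overlapped. After rescaling every DSS mouse labelled knockout was below its water counterparts, by -0.66 with a pooled SD of 0.16, and the controls overlapped at -0.35 with a pooled SD of 0.23. Relative to Epcam it was 0.0131 to 0.0208 after DSS and 0.022 to 0.0331 in water, without overlap, as were 11.6% of genes over all mice. By percentile rank within each library the mice labelled knockout did not overlap, at 79.98 to 83.5 after DSS and 85.21 to 87.9 in water. The controls overlapped by rank, and no share of all genes was computed by rank. In mice labelled knockout the call thus held by rank, after rescaling and relative to Epcam, and not as deposited. As deposited Epcam itself measured 893.9 to 1017 TPM after DSS against 565.7 to 712.4 in water, and after rescaling it overlapped over all mice. Cx3cr1, the receptor of Cx3cl1 and a marker of resident macrophages, measured 6.20 to 27.0 TPM in water and 0.135 to 0.657 after DSS.

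Of the proteases that act on these chemokines, Mmp7 (matrilysin, an epithelial metalloproteinase) was higher after DSS in all mice, at 1.52 to 3.47 TPM against 0 in 8 of 9 water mice and 0.396 in the other. Adam10, a sheddase of Cx3cl1 and Cxcl16, measured 27.0 to 59.0 TPM after DSS and 12.3 to 24.4 in water as deposited, and after rescaling its groups overlapped in controls. Of the 5 genes of this list 1 was higher without overlap in controls, where 10.3% of all genes were, and 0 lower (14.1%). In mice labelled knockout 2 were higher (17.3%) and 1, Mmp9, was lower (18.0%).

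Ccl28, the mucosal chemokine of IgA plasma cells, varied little between mice of a treatment. Water controls measured 28.0, 27.3, 36.2 and 27.8 TPM, and water mice labelled knockout 32.5, 31.8, 29.4, 29.7 and 33.7. DSS controls measured 45.8, 48.0 and 40.3 TPM, and DSS mice labelled knockout 43.3, 38.5, 39.3 and 47.1. As deposited all 7 DSS mice were above all 9 water mice, as were 18.9% of genes, and after rescaling the groups overlapped with differences of 0.22 (pooled SD 0.19) and 0.05 (pooled SD 0.11). The ratio to Epcam overlapped too, at 0.0396 to 0.0527 after DSS and 0.0437 to 0.0576 in water. Its receptor Ccr10 measured 1.28 to 21.2 TPM in water and 0.162 to 1.00 after DSS.

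Ccl20 and Ccl25 were listed at 0 in some mice of every group. Ccl20 measured 5.30, 3.75, 0 and 0 TPM in water controls, 7.32, 0, 0, 6.19 and 1.23 in water mice labelled knockout, 0, 8.26 and 7.87 in DSS controls and 0, 0, 5.33 and 8.88 in DSS mice labelled knockout. Ccl25 measured 0.968, 0, 1.78 and 0 TPM in water controls, 0, 1.29, 1.82, 2.14 and 2.06 in water mice labelled knockout, 0, 3.16 and 3.54 in DSS controls and 1.14, 1.78, 0 and 1.91 in DSS mice labelled knockout. With all mice in, neither separated any groups, and without DSS control 1, which was listed at 0 for both, both were higher in DSS than in water controls, by 1.68 and 1.28. Of the 31-base stretches that kallisto uses to assign reads, 3.80% of those of the listed Ccl20 transcript and 2.14% of those of Ccl25 occur in no other annotated transcript, where the genes have 3 and 4 coding transcripts. The tables hold the listed transcript only, so a 0 here is a value listed at 0 for that transcript, not an absence of the gene. The same share was 2.44% in Cxcl10, 2.78% in Cxcl2, 3.89% in Cxcl5 and 9.86% in Cxcl1, whose other transcripts share most of the sequence, and 32.4% in Cxcl16, 79.1% in Cx3cl1, 91.9% in Cxcl9 and 92.0% in Ccl28. Their receptors Ccr6 and Ccr9 measured at most 1.55 and 0.83 TPM.

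The members also differed in how far mice of one treatment were apart. The coefficient of variation of Ccl28 was 9.87% over the 9 water mice and 9.00% over the 7 DSS mice, and 5.69% and 6.49% of the genes tested in each table varied less. Cx3cl1 was as tight in water (9.74%) and wider after DSS (22.0%). At the other end stood Cxcl2 with 112.1% and Cxcl9 with 148.4% after DSS, which exceeded 97.2% and 98.6% of genes, against 40.0% and 55.1% in water. Without DSS control 1, the highest mouse in both genes, they were 60.1% and 93.0%, and exceeded 87.7% and 95.5% of genes. Ccl20 (81.1%), Cxcl5 (71.8%) and Ccl25 (67.6%) then varied more than Cxcl2. In water the widest members were Ccl20 (114.1%), Cxcl5 (88.3%) and Ccl25 (81.7%). Cxcl16 lay near the median gene in both treatments, at 27.7% and 21.5% where the median was 25.6% and 23.4%.

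Between labelled genotypes, 0 of 10 chemokines were called after DSS by limma at an adjusted p under 0.05, where 1 of 10899 genes was (0.00918%, the gene Tra2a), and 0 of 10 had an unadjusted p under 0.05, as 2.65% of genes did. The largest differences were higher Cxcl5, by 1.10 (SE 0.49, adjusted p 0.9997, exact permutation p 0.143), and higher Cxcl1, by 0.70 (SE 0.42, exact permutation p 0.286). Without DSS control 1 Cxcl5 differed by 1.52 (SE 0.48, unadjusted limma p 0.0157, adjusted p 0.905), and without DSS knockout 2 both passed an unadjusted p of 0.05 and neither the adjusted one. The difference in Cxcl2 was -0.22 (SE 0.86), and without DSS control 1 it was 0.87. The groups overlapped in all 10, while 2.13% of genes were higher and 1.55% lower in mice labelled knockout without overlap. The 35 splits of these 7 mice allow no exact p below 0.0286.

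In water the differences of these 3 genes were negative. The limma differences of knockout label minus control were -0.89 (SE 0.49) in Cxcl5, -0.59 (SE 0.39) in Cxcl1 and -0.53 (SE 0.38) in Cxcl2. None of the 10 was called, where 1 of 11046 genes was (0.00905%, Dus2), and 0 of 10 had an unadjusted p under 0.05, as 5.28% of genes did. The groups overlapped in all 10, while 0.67% of genes were higher and 0.878% lower without overlap. The smallest exact permutation p of a member was 0.119, in Cx3cl1. Whether the difference between genotypes itself differs between treatments was not tested, since the tables were scaled apart.

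**Figure D4:**
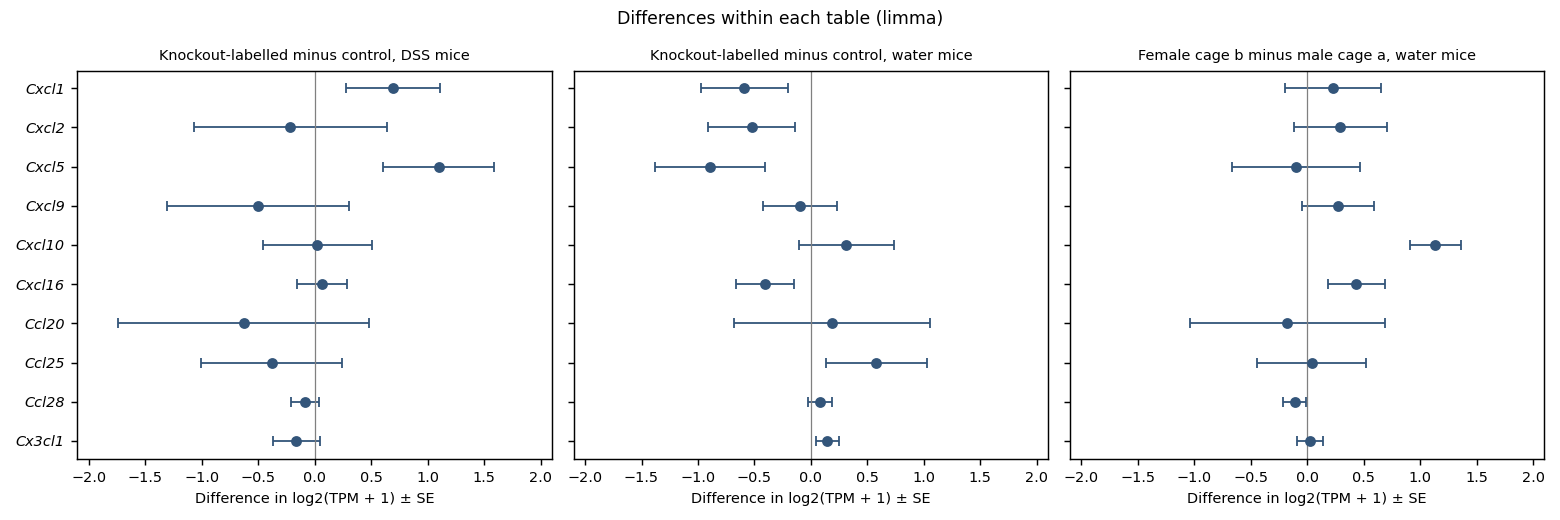
Difference in log2(TPM + 1) with its SE (limma) for each chemokine between labelled genotypes after DSS (left) and in water (middle), and between the female cage b and the male cage a in water (right). No difference passed an adjusted p of 0.05, and Cxcl10 between the cages lay farthest from 0 in units of its SE.

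Between the cages of the water mice Cxcl10 stood out. The 5 females of cage b measured 30.7, 31.1, 37.3, 49.9 and 32.4 TPM, and the 4 males of cage a 21.8, 10.9, 13.0 and 19.5, with no overlap, as in 0.996% of genes for higher values in cage b and 0.797% for lower ones. The mean was 36.3 ± 8.06 TPM (SD, n = 5) against 16.3 ± 5.19 (n = 4), and the exact two-sided permutation p was 0.00794, the smallest that 126 splits can give. Each sex was 1 cage, so this p rests on the spread of mice within these cages and not of cages or sexes. It was not adjusted over the 10 members. By limma the difference was 1.13 (SE 0.22, adjusted p 0.442 over 11046 genes), so Cxcl10 was not called, and 4 genes were (0.0362%), among them the Y-linked Eif2s3y and Ddx3y. It was the 1 of 10 members with an unadjusted p under 0.05, as were 5.86% of genes, and its difference was 0.97 to 1.28 and its limma adjusted p 0.371 to 0.771 over the alternatives run.

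Other lists leaned in the same direction between these cages with 0 genes called. Of 16 interferon pathway genes tested 15 were higher in cage b, and 3 had an unadjusted limma p under 0.05, where 5.86% of all genes did. The 3 were Ifit1 (0.89, SE 0.21), Ifit3 (1.18, SE 0.30) and Isg15 (1.21, SE 0.47), which are singled out after their values were seen. All 9 macrophage and dendritic markers and all 7 pan-leukocyte markers were higher in cage b, with median differences of 0.37 and 0.43, and all 10 epithelial markers were lower, with a median of -0.18. The part of these cells in the Cxcl10 difference was not tested.

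Across mice of one treatment, different members correlated. Over the 7 DSS mice, 3 of 45 pairs had an adjusted p under 0.05 for Pearson's r of log2(TPM + 1), by exact permutation of pairings. Cxcl2 and Cxcl10 had r = 0.95 (exact p 0.000595, adjusted p 0.0179, Spearman's rho 0.96 with exact p 0.00278). Cxcl2 and Cxcl9 had r = 0.96 (exact p 0.00119, adjusted p 0.0179, rho 0.96 with exact p 0.00278). Cxcl9 and Cxcl10 had r = 0.95 (exact p 0.000992, adjusted p 0.0179, rho 0.93 with exact p 0.00675). Without DSS control 1 and DSS control 3, the mice farthest from the median, r was 0.88, 0.82 and 0.91 over 5 mice. None of the rho values passed adjustment, with adjusted p of 0.0625 to 0.101. The neutrophil list followed the same mice, with r = 0.96 against Cxcl2 (exact p 0.00238, adjusted p 0.0952 over 80 relations) and 0.91 against Cxcl10 (exact p 0.000794, adjusted p 0.0635). Cages hold fewer than 6 mice, so no value within a cage can be given.

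In the 9 water mice 0 of 45 pairs passed by exact permutation, and 3 of 80 relations with marker lists did. Cxcl1 and Cxcl2 came nearest, with r = 0.91 (exact p 0.00114, adjusted p 0.0515, rho 0.85 with exact p 0.00607). The stromal list correlated with Cxcl1 (r = 0.93, exact p 0.000463, adjusted p 0.037, rho 0.85 with exact p 0.00607), with Cxcl2 (r = 0.90, exact p 0.00178, adjusted p 0.0475, rho 0.82 with exact p 0.0108) and with Cxcl16 (r = 0.89, exact p 0.00156, adjusted p 0.0475, rho 0.80 with exact p 0.0138), and no rho passed adjustment (0.34 in each). Without the 2 mice farthest from the median r was 0.86, 0.77 and 0.57 over 7 mice, and Water knockout 2, the lowest in all 4 measures, was left out each time. Ccl28 and Cx3cl1 had no relation with a marker list that passed adjustment.

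**Figure D5:**
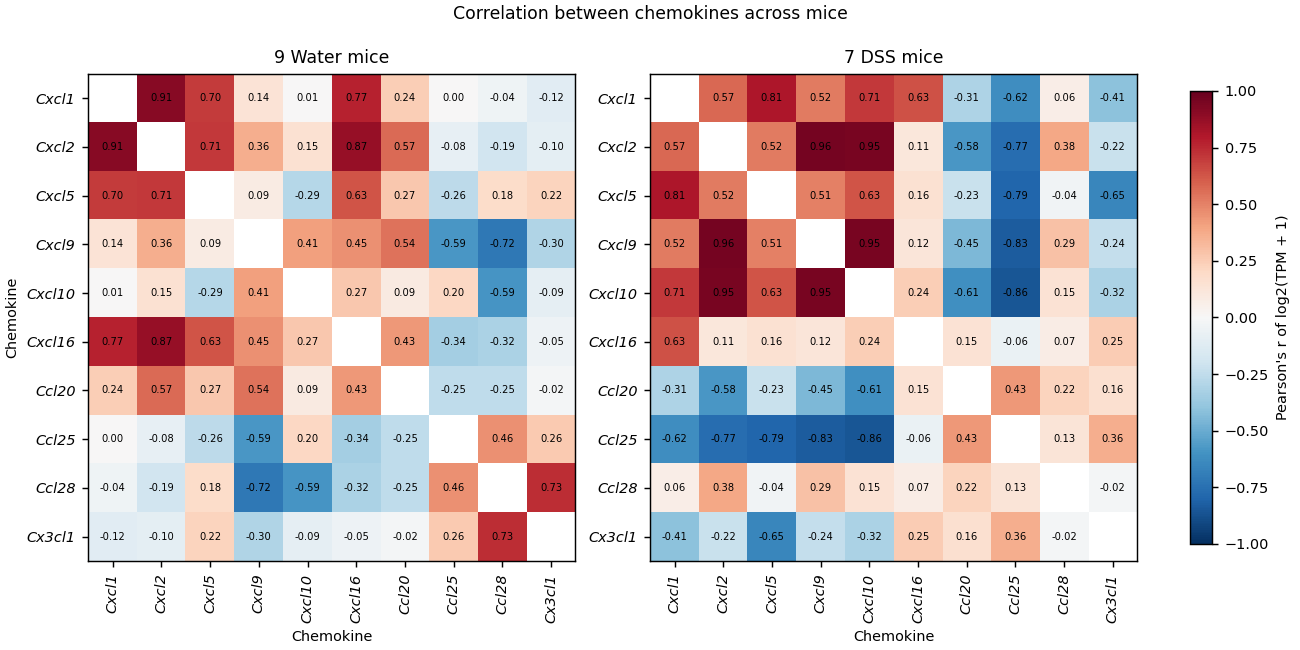
Pearson's r of log2(TPM + 1) between the 10 chemokines over the 9 water mice (left) and the 7 DSS mice (right), red for positive and blue for negative. Cxcl2, Cxcl9 and Cxcl10 form a block of 0.95 to 0.96 after DSS, and Cxcl1, Cxcl2 and Cxcl16 a block of 0.77 to 0.91 in water.

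The genes most alike to a member were sought by the correlation of deviations from the treatment means over all 16 mice, among 6220 genes, as a description. They were Phlda1 (r = 0.92), Areg (0.87) and Rnd3 (0.86) for Cxcl1, where Areg encodes the growth factor amphiregulin. They were Il1a (0.90), Ccl3 (0.86) and Wfdc17 (0.85) for Cxcl2, of which Il1a encodes interleukin 1 alpha. For Cxcl10 they were B2m (0.90), Ifitm1 (0.85) and Cnn2 (0.84), where B2m encodes the light chain of MHC class I. For Cxcl16 they were Maff (0.91), Fosl1 (0.89) and Ier3 (0.88), and Maff and Fosl1 encode bZIP transcription factors of the immediate response. Cx3cl1 was most like Ppard (0.93), Caskin2 (0.88) and Stat6 (0.88), and Ccl28 had no gene above Actn1 (0.72), Ogt (0.72) and Rnf103 (0.71). The points share 2 tables and 4 cages.

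The wider chemokine system was read from lists chosen with earlier results known. Without overlap in both labelled genotypes, 6.04% of all genes were higher after DSS and 8.51% lower, and whether the lists differ from the members was not tested. Of 27 other ligands, 20 reached a mean of 1 TPM, and 1 was higher and 9 lower after DSS without overlap in both labelled genotypes. Ppbp was the 1 that was higher, by 2.35 (the mean of both genotypes, rescaled). The largest negative differences were Pf4 at -6.50, Ccl8 at -5.26 and Ccl7 at -3.60, chemokines known from platelets and macrophages. Ccl8 measured 84.9 to 250.7 TPM in water and 2.64 to 14.9 after DSS. Of 22 receptors 9 reached it, and 0 were higher and 6 lower in both, led by Cx3cr1 at -3.60, Cxcr4 at -3.48 and Ccr1 at -2.67. The macrophage and dendritic markers named above were lower in the same mice, and their part in these differences was not tested.

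The signalling lists held few such genes. Of 24 NF-kB and IL-17 pathway genes 22 reached it and 1 was lower in both genotypes, Nfkbie (an inhibitor of NF-kB), by -2.09. In controls 6 of the 22 were lower, where 14.1% of all genes were, and 0 higher (10.3%). In mice labelled knockout 4 of the 22 were lower, where 18.0% of all genes were, and 0 higher (17.3%). The list's median was -0.43 in controls and -0.31 in mice labelled knockout after rescaling, and -0.09 and 0.04 with TPM as deposited. Of 17 interferon pathway genes 1 was lower in both, Ifngr1, a chain of the interferon-gamma receptor, by -0.41. As deposited Ifngr1 overlapped, at 88.3 to 106.5 TPM after DSS and 91.7 to 105.2 in water. Between labelled genotypes 0 of 62 tested genes of the 5 pathway lists were called after DSS and 0 of 72 in water by limma. After DSS 1 of the 62 (Isg15) had an unadjusted limma p under 0.05, where 2.65% of all genes did. In water 2 of the 72 (Ccr10 and Xcl1) did, where 5.28% of all genes did. Isg15 was lower in DSS mice labelled knockout by -1.04 (SE 0.26). Between the cages in water 0 of 72 were called by limma and 12 had an unadjusted p under 0.05, where 5.86% of all genes did.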

How the data were processed

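RNA of sorted EpCAM+ distal colon cells was measured in 16 mice of 4 groups, mapped by the sample titles. By the labels, stranded polyA libraries were read as single reads. The submitters' processing notes name kallisto, sleuth and mm10. The authors deposited 2 tables of TPM, 1 per treatment, made with kallisto and scaled within the table by sleuth, and they list APPRIS principal transcripts only. The authors' other columns, their p-values, q-values and log2 ratios between genotypes, were not used. Of 29373 lines in each table, 385 repeats were dropped. TPM of 28988 transcripts was summed by gene symbol. All 10 listed member transcripts have the same version in GENCODE M21 (GRCm38), which gave the positions.

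Within a table, groups were compared by limma 3.58.1 (R 4.3.3) with the variance trend on log2(TPM + 1). Genes entered where their mean reached 1 TPM (10899 after DSS, 11046 in water, all 10 members among them), and p was adjusted by Benjamini-Hochberg with calls under 0.05. For single genes TPM was permuted exactly between groups, two-sided. The test was tried on simulated data first. Between tables no test was run. Levels were rescaled by median-of-ratios factors over 9371 genes (0.899 to 0.942 in water, 1.14 to 1.24 after DSS), and overlap was read from the lowest and highest mouse. Correlations used exact permutation of pairings. Alternatives were a pseudocount of 0.1, other filters, other scalings, ranks, cage or genotype as covariate, a replicate block and leaving out each mouse. TPM carries no depth, so precision is given by the spread between mice.

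Members and lists were chosen with earlier results of these data known. Named genes are the 10 members, Tnfrsf1b, the receptors of the members, of each pathway list up to 3 genes per direction with the largest difference without overlap in both genotypes, any called gene, abundant or absent markers, and the 3 genes most alike to each member whose mean reached 5 TPM in both tables. Python 3.11.15, numpy, pandas and matplotlib were used for the rest.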

Additional observations from a re-analysis of the deposited data

Results flagged for a closer look

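In each of the 3 groups of 4 or 5 mice the highest and lowest mouse of each chemokine was set against the others of its group, 30 groups of values in all, and chance flags about 1 in 20. In 2 of them a mouse lay far from the rest. Cxcl5 measured 29.3 TPM in DSS knockout 3 against 10.0 to 13.3 in the other 3 mice of its group, and the gap took 0.831 of the range where the limit is 0.829. Ccl28 measured 36.2 TPM in Water control 3 against 27.3 to 28.0, with 0.926 of the range. The DSS controls are 3 mice and were not examined in this way.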

How the results depend on the processing

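The count of chemokines called stayed at 0 in each comparison within a table, under every alternative run, although with a mean of at least 5 TPM only 7 of the 10 were tested after DSS and 6 in water. The count of all genes called after DSS (1) was 0 with a pseudocount of 0.1, without a filter on low values and with the replicate block, and 0 to 3 with a mouse left out. In water the count (1) was 0 with a pseudocount of 0.1, with a mean of at least 5 TPM and with the replicate block, 4 without a filter, and 1 to 2 with a mouse left out. Between cages it was 4, and 3 to 7 with a mouse left out, 7 of them without Water knockout 3. Mice with the same replicate number were not paired, and the correlation of what remained after taking off the group mean was -0.197, -0.0253 and -0.16 after DSS and 0.035, -0.0769, 0.0932 and 0.0888 in water, and the replicate block called no chemokine.

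Of the chemokines higher without overlap after DSS, controls had 0, 1 with TPM as deposited and 0 to 2 with a mouse left out, and mice labelled knockout had 1, and 2 as deposited. Of those lower, controls had 1, 1 to 2 with a mouse left out and 3 relative to Epcam in the same mouse, an alternative chosen after seeing the data. Mice labelled knockout had 1, 0 as deposited, 2 relative to Epcam and 1 to 3 with a mouse left out. No share of all genes was computed for the Epcam counts of a single genotype. With Spearman's rho, 0 of the 3 pairs after DSS and 0 of the 3 relations with marker lists in water passed.

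Signs of uncalled differences (log2) turned as follows with a mouse left out. Between DSS and water mice the range in Cxcl9 was -0.66 to 0.97 in controls and -0.38 to 0.11 in mice labelled knockout, where it was -0.65 to 0.38 in Ccl20 and -0.0049 to 0.0934 in Ccl28. The shares of all genes under each omission were added after seeing the data. Between genotypes after DSS the ranges were -1.07 to 0.87 in Cxcl2, -1.23 to 0.47 in Cxcl9, -0.41 to 0.57 in Cxcl10, -0.0739 to 0.21 in Cxcl16, -1.09 to 0.0023 in Ccl25 and -0.33 to 0.0476 in Cx3cl1. In water they were -0.37 to 0.093 in Cxcl9, -0.0029 to 0.57 in Cxcl10 and -0.23 to 0.66 in Ccl20. Between cages they were -0.19 to 0.58 in Cxcl1, -0.12 to 0.50 in Cxcl2, -0.43 to 0.34 in Cxcl5, -0.65 to 0.36 in Ccl20, -0.26 to 0.28 in Ccl25 and -0.0512 to 0.0661 in Cx3cl1. With a pseudocount of 0.1 the cage difference was 0.0023 in Ccl20 and -0.23 in Ccl25, and with genotype as a covariate it was -0.0183 in Ccl25. The cause of these changes was not tested. Depth behind each TPM is unknown, which limits the members under a few TPM most.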
